A study of Homo sapiens with 6 samples.

Results

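The genes described here are the protein-coding genes of human chromosome 19 whose symbol starts with ZNF and a number. They were chosen by symbol, biotype and position in the deposited table, with no use of their levels, and 253 of its 27420 genes met the rule. The 253 entries carry 248 distinct symbols, since 5 symbols stand for 2 entries each, and 2 symbols are read-through transcripts that join a ZNF gene to its neighbour. RNA was sequenced from 2 established Ewing sarcoma cell lines, A673 and SKNMC. Ewing sarcoma is a tumour of bone and soft tissue driven by the fusion of EWSR1 with an ETS gene, most often FLI1. Cells of both lines received THZ1, a covalent inhibitor of the transcription kinase CDK7, at 50 or 200 nM or its vehicle DMSO for 6 h, to ask which transcripts depend on that kinase. Every condition had 1 library and none was repeated, so the differences below carry no replicate error and no test. Values are FPKM, fragments scaled to transcript length and library size, which allows genes to be compared per length. The number of reads behind a value is unknown.

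Most proteins of this family carry an array of C2H2 zinc fingers, each of which folds around a zinc ion and contacts a few bases of DNA. Many also carry a KRAB domain, which recruits the corepressor TRIM28 (KAP1) and through it the histone methyltransferase SETDB1 and HP1 proteins, so that the bound site is silenced. The genes multiplied by tandem duplication, many copies are specific to primates, and a large share of their known targets are transposable elements.

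Neighbouring members were joined into a cluster where their spans lay within 500 kb, and groups of at least 5 were kept. This gave 10 clusters with 239 members, named here by their first and last gene, and 14 dispersed members. In hg19 coordinates they ran from ZNF554 to ZNF77 (5 members, chr19:2819871-2944969) and ZNF414 to ZNF846 (15 members, chr19:8575461-9903856) on the short arm to ZNF264 to ZNF446 near the end of the long arm (44 members, chr19:57702867-58992597). The other short-arm clusters were ZNF653 to ZNF791 (30 members, chr19:11594241-12750912) and ZNF101 to ZNF254, which reached toward the centromere (36 members, chr19:19779604-24312654). On the long arm followed ZNF302 to ZNF792 (5 members, chr19:35168543-35454953), ZNF565 to ZNF573 (26 members, chr19:36673187-38307940) and ZNF575 to ZNF180 (24 members, chr19:44029648-45004576). The last were ZNF175 to ZNF331 (38 members, chr19:52074550-54083523) and ZNF628 to ZNF835 (16 members, chr19:55987698-57183151).

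Annotated protein sequences were in accord with the family name. A coding transcript was found for 244 members, and the median number of C2H2 finger patterns was 12, with a maximum of 36 in ZNF208. A strict pattern of the KRAB domain was present in 189 members (77.5% of those with a coding transcript), but in 2 of 22 in the ZNF575 to ZNF180 cluster, and a missing match says only that these residues were not met. Over 10% of the 100-base words were shared with another gene in 49 members, 15 of them in the ZNF653 to ZNF791 cluster, while 136 members shared none. Overlapping or read-through entries of the same locus count as sharing, as for ZNF559-ZNF177 (88.49%) and ZNF177 (93.3%). What part of the sharing came from duplicated copies was not tested. How the counting divided fragments between such entries or near-identical copies is not stated, and values of the 49 members are uncertain for that reason. Without these 49 members the shares decreased, given further on for all members, were 41.1% and 64.3% in A673 and 36.6% and 54.5% in SKNMC at 50 and 200 nM.

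A part of the promoters held a common sequence word. RefSeq promoter windows of 300 bases (250 before and 50 after the start site, GRCh38.p14) matched 213 member symbols with 261 windows. The word CCGGAAG, the core of many ETS factor sites, was found on either strand in 103 of them (39.5%), against 10.3% of all 35116 windows. The share was 28.9% in ZNF genes outside chromosome 19, 13.2% in other protein-coding genes of chromosome 19 and 18% in protein-coding genes above 1 FPKM in A673. The stretches printed here come from 6 of these promoters, 5′ to 3′ on the strand of the gene and upstream of the start site, with the word or its reverse complement in capitals. They belong to members at both ends of the THZ1 response. ZNF324, ZNF579, ZNF302 and ZNF584 were among those reduced most, while ZNF580 and ZNF814 were not reduced at 2-fold in either line. ZNF576, ZNF561 and ZNF146, also among the most reduced, lacked the word in their windows.
ZNF324, chr19:58466958-58467044, plus strand: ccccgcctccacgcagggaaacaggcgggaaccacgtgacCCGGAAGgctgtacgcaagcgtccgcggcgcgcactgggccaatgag
ZNF579, chr19:55580945-55581031, minus strand: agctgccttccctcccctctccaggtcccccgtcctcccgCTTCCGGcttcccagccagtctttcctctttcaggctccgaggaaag
ZNF302, chr19:34677570-34677656, plus strand: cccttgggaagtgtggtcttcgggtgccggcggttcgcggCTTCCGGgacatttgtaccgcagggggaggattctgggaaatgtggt
ZNF584, chr19:58408462-58408548, plus strand: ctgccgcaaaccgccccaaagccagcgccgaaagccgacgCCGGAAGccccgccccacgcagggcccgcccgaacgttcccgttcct
ZNF580, chr19:55640950-55641001, plus strand: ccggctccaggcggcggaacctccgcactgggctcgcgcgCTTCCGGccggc
ZNF814, chr19:57889038-57889102, minus strand: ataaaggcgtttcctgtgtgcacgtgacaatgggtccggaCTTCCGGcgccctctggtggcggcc

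The medians of members with the word in a window were not lower than those of members without it. In A673 at 50 nM, the median log2 change against DMSO was -0.79 in 63 members with the word and -0.97 in 72 without. In SKNMC the medians were -0.80 in 77 and -0.85 in 77. At 200 nM the pairs of medians were -1.03 and -1.21 in A673 and -0.89 and -1.14 in SKNMC. The tandem form GGAAGGAA was found in 2.68% of the members' windows and 3.67% of all windows. Of the other 8 motifs searched on both strands, the TATA word TATAAA was at 2.68% against 11.5% of all windows and 5.92% of those active in A673. The CCAAT word was at 49% against 34.6% of all windows. The GC box GGGCGG was at 65.1% against 45% of all windows, but 66.9% in active genes. CACGTG, TGACGTCA and GCATGCGC stood at 4.6%, 3.07% and 4.6%, beside 9.64%, 2.94% and 5.05% in active genes. A word match is a description of these letters and does not show binding.

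In DMSO the ZNF genes were expressed at low levels in both lines. The median of the 253 members was 1.468 FPKM in A673 and 2.194 FPKM in SKNMC. A member was counted as active in a line when it was above 1 FPKM in the DMSO library, which held for 153 members in A673 and 172 in SKNMC. Of these, 143 were active in both lines, 10 in A673 alone and 29 in SKNMC alone, and 71 were active in neither. The median of the active members of a cluster lay between 1.62 and 7.572 FPKM in A673 and between 1.599 and 7.021 FPKM in SKNMC, and together the members held 0.1726% of all listed FPKM in A673 and 0.2012% in SKNMC. At the edge of the threshold in A673 lay ZNF724P, just above it at 1.029 FPKM, and ZNF850, just below it at 0.9429 FPKM. In SKNMC they were ZNF284 at 1.007 FPKM and ZNF114 at 0.9744 FPKM.

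A few members stood far above the others. ZNF146, which encodes a protein made almost wholly of zinc fingers and without a KRAB domain, was the highest at 85.31 FPKM in A673 and 75.27 FPKM in SKNMC. ZNF428, ZNF358 and ZNF580 followed in A673 at 35.5, 32.74 and 25.79 FPKM, and in SKNMC these 3 stood at 32.86, 19.78 and 33.32 FPKM. ZNF428 and ZNF580 are atypical members, with 1 and 3 finger patterns and no KRAB pattern. ZNF787 and ZNF444, a SCAN-domain zinc finger gene, were at 24.32 and 20.64 FPKM in A673 and at 17.94 and 21.47 FPKM in SKNMC. All others in the list of named genes were between 0.03628 and 16.57 FPKM in DMSO.

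After 6 h of THZ1 the whole distribution shifted down. The median of all 253 members went from 1.468 FPKM in DMSO to 0.4614 FPKM at 50 nM in A673, and to 0.2353 FPKM at 200 nM. In SKNMC it went from 2.194 to 0.7479 and 0.5213 FPKM. The number above 1 FPKM went from 153 to 79 and 56 in A673 and from 172 to 110 and 89 in SKNMC. The summed FPKM of the members at 50 and 200 nM was 54.58% and 40.7% of the DMSO sum in A673, and 56.72% and 44.5% in SKNMC, while the sum over all listed genes stayed between 97.78% and 100.5%. Members listed at 0 numbered 17, 26 and 33 in A673 and 11, 20 and 20 in SKNMC. A 0 in such a table can be a failed estimate and is taken only as listed at 0.

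**Figure D1:**
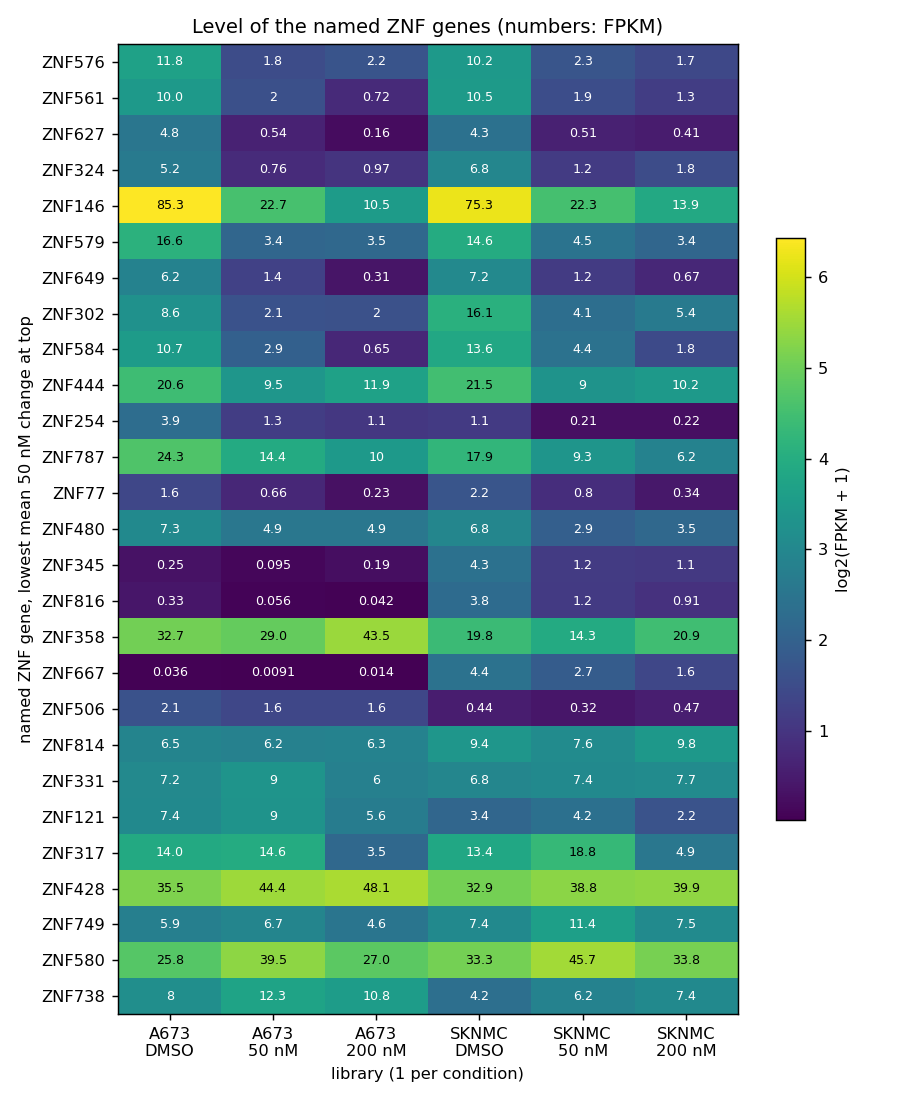
Level of 27 ZNF genes (rows, ordered by the mean of both lines' log2 change at 50 nM) in the 6 libraries (columns), with colour for log2(FPKM + 1) and the FPKM printed in each cell. ZNF146 went from 85.31 FPKM in A673 with DMSO to 10.5 FPKM at 200 nM, while ZNF428 stood at 35.5 and 48.07 FPKM in the same libraries.

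Changes were expressed as log2((FPKM + 1) / (FPKM + 1 in DMSO)), and a decrease or increase means at least 2-fold on this scale. Because 1 is added, the changes of low members are understated, and a member near 1 FPKM in DMSO passes 2-fold only when its treated value is close to 0. In A673, 61 of 153 active members (39.9%) were decreased at 50 nM, against 15.9% of all 11077 active genes. At 200 nM, 92 members (60.1%) were decreased, against 25.3% of all active genes. In SKNMC, 59 of 172 active members (34.3%) were decreased at 50 nM, against 15.8% of 11896 active genes, and 87 (50.6%) at 200 nM, against 27.3%. The median log2 change of members at 50 and 200 nM was -0.83 and -1.14 in A673, where all active genes had -0.27 and -0.40. In SKNMC it was -0.82 and -1.005, where all active genes had -0.32 and -0.55. In each of the 4 comparisons the share of decreases among members was above that among all active genes.

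The difference was also present within 1 band of expression. Among genes between 1 and 10 FPKM in DMSO, 37.9% of 140 members and 17.9% of 4421 genes were decreased in A673 with 50 nM THZ1, and 59.3% and 26.4% with 200 nM. In SKNMC the same band gave 33.5% of 155 members and 18.6% of 4886 genes at 50 nM, and 47.7% and 26.8% at 200 nM. With a 1.5-fold threshold the counts in A673 were 102 (66.7%) at 50 nM and 128 (83.7%) at 200 nM, with 31.8% and 41.1% among all active genes. The counts in SKNMC were 113 (65.7%) and 134 (77.9%), with 33.5% and 48% among all active genes.

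The response was not limited to chromosome 19. Of the 261 ZNF genes on other chromosomes, 196 were active in A673 and 202 in SKNMC. At 50 and 200 nM, 41.3% and 60.2% of them were decreased in A673 and 33.7% and 50.5% in SKNMC. The shares on chromosome 19 were 39.9%, 60.1%, 34.3% and 50.6% in the same order. Other protein-coding genes of chromosome 19, which share the chromosome but not the family, had 18.4% and 19.2% of 626 decreased in A673 and 18.7% and 21.6% of 654 in SKNMC, with median log2 changes between -0.38 and -0.11.

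Increases were rare. A single active member, ZNF587B in SKNMC at 50 nM, was increased at least 2-fold, while none was in the other 3 comparisons. Among all active genes 0.343% and 0.126% were increased in A673 at 50 and 200 nM, and 0.471% and 0.462% in SKNMC. Without regard to size, 139 of 153 members (90.8%) were below DMSO in A673 at 50 nM and 147 (96.1%) at 200 nM, against 70.1% and 70.4% of all active genes. In SKNMC 154 of 172 (89.5%) and 158 (91.9%) were below, against 73% and 80.8%. Decreases of at least 4-fold at 50 nM were seen in 2 members in each line (1.31% in A673 and 1.16% in SKNMC), against 1.37% and 1.24% of all active genes. With 200 nM they were seen in 14 members (9.15%) in A673 and 9 (5.23%) in SKNMC, against 4.7% and 3.53%. With 1 added, a 4-fold decrease needs at least 3 FPKM in DMSO. The upper quartile of the 253 members was 3.048 FPKM in A673 and 4.295 FPKM in SKNMC. Many active members could thus not reach 4-fold, which limits the comparison with all active genes.

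Scaling moved these shares. Dividing each library by the 75th percentile of active genes raised the median change of all genes by between 0.22 and 0.48 on the log2 scale, and dividing by the ribosomal protein genes lowered it by between 0.20 and 0.45. Under the former, 29.4% and 52.3% of members were decreased in A673 at 50 and 200 nM, against 11% and 17.3% of all genes, and in SKNMC 25.6% and 36.6%, against 10.3% and 13.4%. Under the latter the shares were 46.4% and 68.6% against 21.3% and 34.7% in A673, and 45.3% and 64% against 25% and 50% in SKNMC. The median of members stayed below that of all active genes by 0.23 to 0.96 on the log2 scale in these alternatives. Under the 75th percentile, 1 member was increased in A673 at 50 nM, 1 in SKNMC at 50 nM and 4 in SKNMC at 200 nM.

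The higher dose added less than the lower one. Between 50 and 200 nM, 13 active members (8.5%) went down at least 2-fold in A673 and 10 (5.81%) in SKNMC, against 7.44% and 8.39% of all active genes. No active member went up 2-fold, against 0.117% and 0.37%. With 1 added, a member below 1 FPKM at 50 nM cannot fall 2-fold further. Of the 253 members, 79 in A673 and 110 in SKNMC were above 1 FPKM at 50 nM. The shares that went down therefore do not tell whether members differed from genes in general. The median difference between the doses was -0.27 for members and -0.02 for all genes in A673, and -0.14 for both in SKNMC.

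The genes reduced most were found in different clusters. Among 35 members that exceeded 5 FPKM with DMSO in each line and were listed above 0 throughout, the lowest mean change at 50 nM was that of ZNF576, a short protein with 4 finger patterns. It was at 11.77 FPKM in DMSO, then 1.828 and 2.189 FPKM with 50 and 200 nM in A673, and at 10.15, 2.287 and 1.669 FPKM in SKNMC. Its log2 changes were -2.17 and -2.002 in A673 and -1.76 and -2.06 in SKNMC. Both DMSO libraries lay far above all 4 treated ones, and ZNF576 overlaps SRRM5 on the same strand. ZNF561, a KRAB member of the ZNF414 to ZNF846 cluster, was at 10, 1.973 and 0.7158 FPKM in A673 and at 10.49, 1.912 and 1.272 FPKM in SKNMC. Unlike ZNF576, it was lower at 200 than at 50 nM in both lines. ZNF649, a KRAB member of the ZNF175 to ZNF331 cluster, was at 6.209, 1.385 and 0.3051 FPKM in A673 and at 7.2, 1.197 and 0.6651 FPKM in SKNMC. It too went down with each dose, and it overlaps ZNF577 on the same strand.

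ZNF146, the most abundant member, was among the most reduced. It was at 85.31 FPKM in DMSO, then 22.67 and 10.5 FPKM with 50 and 200 nM in A673, and at 75.27, 22.29 and 13.86 FPKM in SKNMC. Its log2 changes of -1.87 and -2.91 in A673 and -1.71 and -2.36 in SKNMC followed dose in both lines. ZNF146 overlaps ZNF565 on the other strand, and whether the counting used strand is not stated. ZNF324 and ZNF579, whose promoter stretches are shown above, were lowest at 50 nM in A673. In SKNMC this held for ZNF324, while ZNF579 was lower at 200 nM. ZNF324 was at 5.199, 0.7581 and 0.9698 FPKM in A673 and at 6.759, 1.2 and 1.828 FPKM in SKNMC. ZNF579 was at 16.57, 3.371 and 3.548 FPKM in A673 and at 14.63, 4.495 and 3.372 FPKM in SKNMC. Of their 100-base words, 29.44% and 19.2% are shared with other genes, so both values carry that uncertainty.

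Other members with the highest level of their cluster fell in the same way. ZNF584 was at 10.67, 2.938 and 0.6453 FPKM in A673 and at 13.58, 4.426 and 1.75 FPKM in SKNMC, with log2 changes at 200 nM of -2.83 and -2.41. ZNF302 was at 8.587, 2.095 and 2.05 FPKM in A673 and at 16.06, 4.075 and 5.365 FPKM in SKNMC, where 200 nM lay above 50 nM. ZNF627 was at 4.756, 0.5357 and 0.1626 FPKM in A673 and at 4.34, 0.5071 and 0.4148 FPKM in SKNMC, and it overlaps ACP5 on the other strand. These 3 genes were above 4 FPKM in DMSO and, apart from ZNF302 in SKNMC, at or below 4.426 FPKM in every treated library. ZNF274, chosen after its values were seen, encodes a KRAB protein known to bind the 3′ ends of zinc finger genes and to bring SETDB1 there. It was at 4.7444, 1.0539 and 0.68962 FPKM in A673 and at 5.0714, 0.9004 and 0.68918 FPKM in SKNMC, with log2 changes of -1.48, -1.77, -1.68 and -1.85 in that order.

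Milder changes were seen in ZNF77, ZNF480, ZNF787 and ZNF444. ZNF77, top of its low cluster, was at 1.62, 0.6625 and 0.2256 FPKM in A673 and at 2.248, 0.7984 and 0.3376 FPKM in SKNMC. ZNF480 was at 7.279, 4.851 and 4.883 FPKM in A673 and at 6.842, 2.908 and 3.499 FPKM in SKNMC. The decrease of ZNF480 reached 2-fold in SKNMC at 50 nM alone, at -1.005 on the log2 scale, and this call was lost with a common sum (-0.993) or the 75th percentile (-0.78). Scaled by the ribosomal protein genes, ZNF480 was decreased in SKNMC at both doses. ZNF787 was at 24.32, 14.36 and 9.976 FPKM in A673 and at 17.94, 9.335 and 6.227 FPKM in SKNMC, and it went down with each dose. ZNF444 was at 20.64, 9.531 and 11.87 FPKM in A673 and at 21.47, 8.99 and 10.2 FPKM in SKNMC, with its lowest value at 50 nM in both lines.

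Against this background 4 of the 143 members active in both lines (2.8%) were above DMSO at both doses in both lines, fewer than the 10% among all 10574 genes active in both. ZNF738, a KRAB gene of the ZNF101 to ZNF254 cluster, was at 8.049, 12.28 and 10.85 FPKM in A673 and at 4.154, 6.237 and 7.37 FPKM in SKNMC. Its log2 changes between 0.39 and 0.70 stayed above 0 under all 3 scalings, though 24.14% of its words are shared. ZNF587B, chosen after its values were seen, was at 3.25, 6.66 and 4.93 FPKM in A673 and at 3.83, 9.96 and 8.41 FPKM in SKNMC. Its changes of 0.85 and 0.48 in A673 and 1.18 and 0.96 in SKNMC also stayed above 0 under every scaling, but the gene overlaps ZNF814, ZNF587 and ZNF586. ZNF428 was at 35.5, 44.35 and 48.07 FPKM in A673 and at 32.86, 38.8 and 39.93 FPKM in SKNMC. Scaled by the ribosomal protein genes, it was below DMSO in SKNMC, at -0.08 and -0.29, and it overlaps SRRM5 on the other strand. ZNF580 was at 25.79, 39.53 and 26.97 FPKM in A673 and at 33.32, 45.74 and 33.81 FPKM in SKNMC, back at the DMSO level at 200 nM. Scaled by the ribosomal protein genes, its log2 change at 200 nM was -0.28 in A673 and -0.54 in SKNMC, and it overlaps ZNF581 and CCDC106 on the same strand.

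A second pattern was a level above DMSO at 50 nM and below it at 200 nM. It was seen in 10 of 153 active members (6.54%) in A673 and in 10 of 172 (5.81%) in SKNMC, against 10.1% and 14.3% of all active genes, so it was not more common among the members. The 5 that showed it in both lines (3.5% of 143, against 6.93% of all genes) were ZNF317, ZNF121, ZNF529, ZNF420 and ZNF264, of which the last 3 were chosen after their values were seen. ZNF317, a KRAB gene, was at 13.97, 14.62 and 3.53 FPKM in A673 and at 13.37, 18.79 and 4.914 FPKM in SKNMC. ZNF420, whose protein is known as a negative regulator of p53, was at 2.5109, 3.0619 and 0.20086 FPKM in A673 and at 5.4885, 8.347 and 1.5721 FPKM in SKNMC. For both genes 200 nM was the lowest library of the line by far. ZNF529 was at 4.599, 8.4944 and 2.4052 FPKM in A673 and at 9.1479, 12.82 and 6.4219 FPKM in SKNMC. ZNF121 was at 7.354, 8.97 and 5.579 FPKM in A673 and at 3.383, 4.239 and 2.158 FPKM in SKNMC. ZNF264 was at 2.1283, 2.5444 and 1.1684 FPKM in A673 and at 3.4413, 4.6945 and 2.4959 FPKM in SKNMC. The gain at 50 nM was small for most, and under ribosomal protein scaling ZNF317 in A673 turned to -0.16. Under 75th percentile scaling the 200 nM change in SKNMC turned to 0.05 for ZNF529 and 0.08 for ZNF264.

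The changes of the remaining named members with more than 5 FPKM lay between -0.44 and 0.57 on the log2 scale. ZNF358 was at 32.74, 29 and 43.46 FPKM in A673 and at 19.78, 14.31 and 20.94 FPKM in SKNMC, lowest at 50 nM in both. ZNF331, an imprinted gene, was at 7.195, 9.012 and 6.042 FPKM in A673 and at 6.81, 7.368 and 7.652 FPKM in SKNMC. ZNF749 was at 5.907, 6.672 and 4.649 FPKM in A673 and at 7.362, 11.38 and 7.479 FPKM in SKNMC. ZNF814 was at 6.458, 6.168 and 6.26 FPKM in A673 and at 9.429, 7.608 and 9.834 FPKM in SKNMC. For ZNF331, ZNF749, ZNF814 and ZNF358 the sign of at least 1 change turned with scaling by the 75th percentile or by the ribosomal protein genes.

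Set out along the chromosome, each of the 10 clusters had a median below 0 in all 4 comparisons. The lowest median at 50 nM in A673 was that of ZNF414 to ZNF846 (-1.06, 6 of 10 active members decreased), which also had the lowest at 200 nM (-1.64, 8 of 10). These ranks depended on the settings. At 50 nM the lowest was ZNF302 to ZNF792 (-1.985) with 0.1 added in place of 1, ZNF653 to ZNF791 (-0.93) after 75th percentile scaling and ZNF628 to ZNF835 (-1.25) after ribosomal protein scaling. At 200 nM with 0.1 added it was ZNF554 to ZNF77 (-3.46). In SKNMC the ZNF414 to ZNF846 cluster had -0.93 (4 of 10) and -1.27 (7 of 10). ZNF628 to ZNF835, the cluster with the highest GC content, had -1.04 (6 of 11) and -1.21 (8 of 11) in A673 and -0.94 (6 of 14) and -1.23 (11 of 14) in SKNMC. In SKNMC the lowest medians were those of the small ZNF302 to ZNF792 cluster, at -1.42 and -1.31 over 4 active members, against -0.81 and -0.97 over 5 in A673. At 200 nM in SKNMC other clusters were lowest under both of these scalings and with 0.1 added.

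The ZNF101 to ZNF254 cluster had the smallest changes in all 4 comparisons as computed here, though in A673 at 200 nM it lay next to ZNF302 to ZNF792 at -0.97. Its median was -0.56 (3 of 13 active members decreased) and -0.96 (6 of 13) in A673, and -0.47 (0 of 12) and -0.51 (1 of 12) in SKNMC. This cluster was also the least active, with a median over its 36 members of 0.073 FPKM in A673 and 0.263 FPKM in SKNMC. Its active members had a median of 2.698 FPKM in A673 and 1.616 FPKM in SKNMC, so that the added 1 limited their change in SKNMC more than in A673. The ZNF653 to ZNF791 cluster, whose active members were as low (1.931 and 1.599 FPKM), had medians of -0.995 and -1.03 in A673 and -0.94 and -0.91 in SKNMC. With 0.1 added in place of 1, ZNF101 to ZNF254 kept the highest median in 3 comparisons. In A673 at 50 nM it was at -1.118 and ZNF175 to ZNF331 at -1.111. In A673 at 200 nM it was at -1.088 and ZNF302 to ZNF792 at -0.9951 after ribosomal protein scaling, and at -1.003 and -0.973 without members that share over 10% of their words. With no filter on low values ZNF653 to ZNF791 had the smallest changes in A673 at both doses, at -0.25 and -0.28. Above 5 FPKM too few of its members remained for a median.

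Medians of the larger clusters of the long arm lay between -1.43 and -0.59 over the 4 comparisons. ZNF565 to ZNF573 had -0.89 and -1.43 in A673 and -0.89 and -0.95 in SKNMC. ZNF575 to ZNF180 had -0.84 and -1.17 in A673 and -0.94 and -1.16 in SKNMC. ZNF175 to ZNF331 had -0.70 and -1.11 in A673 and -0.59 and -0.98 in SKNMC. ZNF264 to ZNF446, the largest cluster, in which 81.8% of members were active in each line, had -0.77 and -1.08 in A673 and -0.75 and -0.88 in SKNMC. Members within a cluster spread more widely than these medians, in ZNF175 to ZNF331 in SKNMC at 50 nM from -1.90 to 0.13 and in ZNF264 to ZNF446 from -1.83 to 1.18. ZNF554 to ZNF77 had -0.71 and -1.18 in A673 and -0.79 and -1.28 in SKNMC, with 3 active members in each line, and the dispersed members -0.85 and -1.15 and -0.86 and -0.89.

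**Figure D2:**
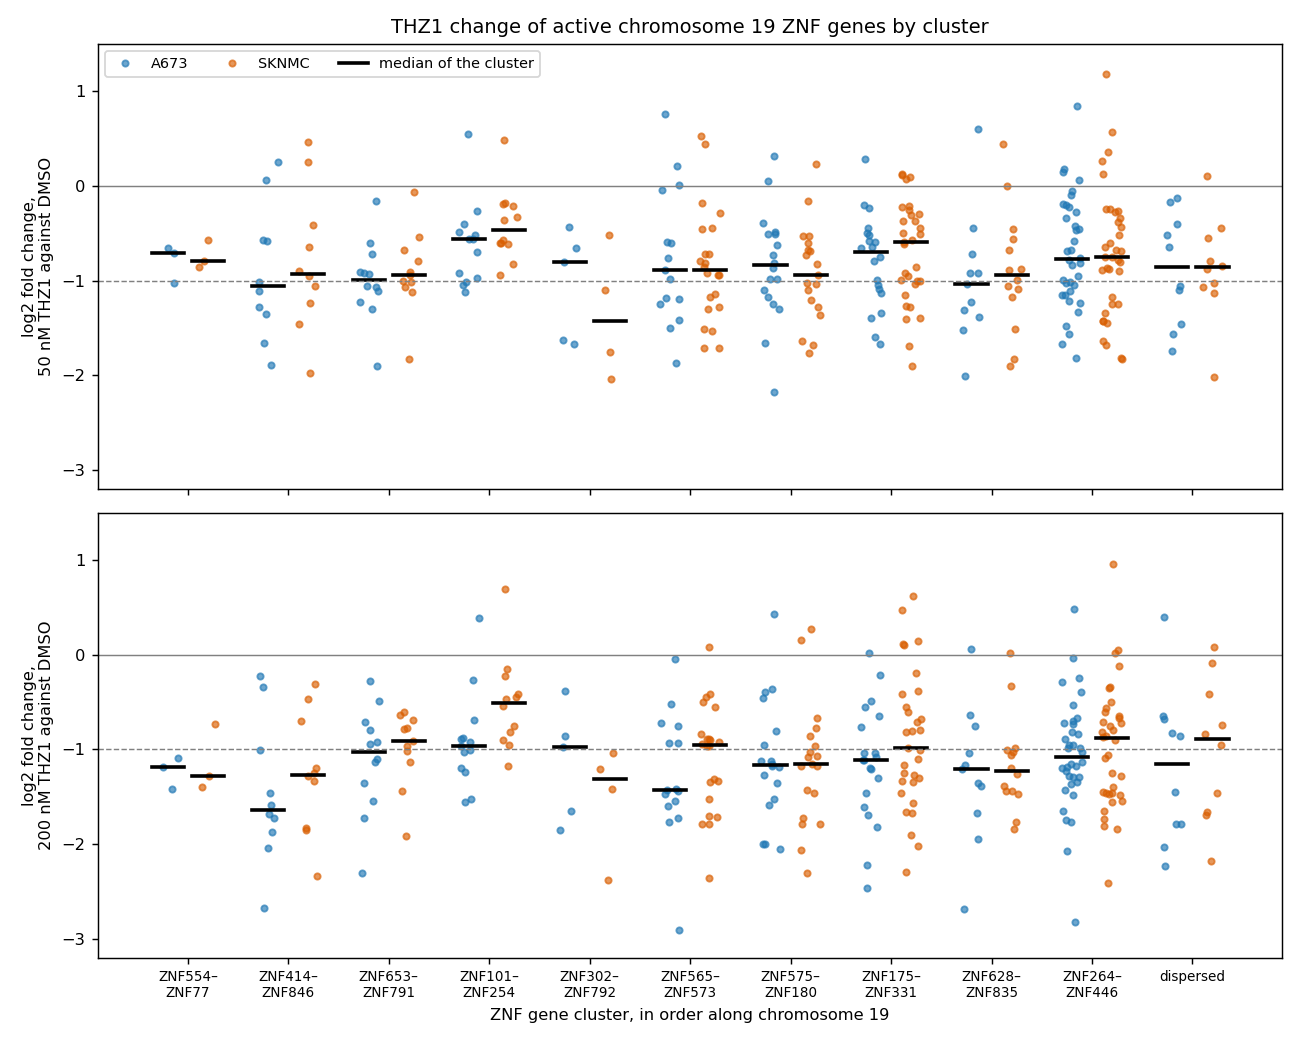
Log2 fold change of each active ZNF gene (points) at 50 nM (upper panel) and 200 nM THZ1 (lower panel) against DMSO, by cluster in order along the chromosome, with A673 in blue, SKNMC in orange, a black bar for the cluster median and a dashed line at a 2-fold decrease. All medians lie below 0, from -1.64 for ZNF414 to ZNF846 in A673 at 200 nM to -0.47 for ZNF101 to ZNF254 in SKNMC at 50 nM.

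In DMSO the clusters differed in which of the 2 lines had the higher level. Over 182 members active in either line, the median log2 ratio of SKNMC to A673, with 1 added to each FPKM, was 0.29, against 0.11 over all 12399 active genes. Of these members 129 were higher in SKNMC and 53 in A673, while 56% of all active genes were higher in SKNMC. At least 2-fold, 15 of 182 members were higher in SKNMC, against 1865 of 12399 active genes (15%). In A673, 2 of 182 were higher by as much, against 1044 of 12399 (8.42%). Both shares of members were thus below those of all active genes. With 1 added, differences of low members are understated, which limits this comparison. In ZNF175 to ZNF331, 28 of 31 were higher in SKNMC, 10 of them at least 2-fold, and 31 members were active in SKNMC against 20 in A673. In ZNF565 to ZNF573, 20 of 22 were higher in SKNMC with a median of 0.65. The direction was opposite in ZNF101 to ZNF254, with 10 of 15 higher in A673 and a median of -0.43, and in ZNF653 to ZNF791, with 10 of 12 higher in A673 and a median of -0.13. Both members that were at least 2-fold higher in A673 lay in the former.

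Of the genes that differed most, the 3 higher in SKNMC were nearly silent in A673. ZNF667 was at 0.03628, 0.00907 and 0.01385 FPKM in A673 and at 4.416, 2.676 and 1.593 FPKM in SKNMC, and an antisense gene overlaps it. ZNF345 was at 0.2478, 0.09512 and 0.1882 FPKM in A673 and at 4.342, 1.175 and 1.11 FPKM in SKNMC. ZNF816 was at 0.331, 0.05597 and 0.04229 FPKM in A673 and at 3.811, 1.167 and 0.9072 FPKM in SKNMC. ZNF816 overlaps ZNF321P on the same strand, and ZNF345 overlaps ZNF829 and ZNF790 on the other strand. In SKNMC, where they were active, ZNF345 and ZNF816 were decreased at both doses and ZNF667 at 200 nM. Under 75th percentile scaling ZNF816 at 50 nM (-0.986) and ZNF667 at 200 nM (-0.69) were no longer past 2-fold. In the other direction ZNF254 was at 3.914, 1.262 and 1.076 FPKM in A673 and at 1.142, 0.2111 and 0.2162 FPKM in SKNMC. ZNF506 was at 2.121, 1.59 and 1.59 FPKM in A673 and at 0.4409, 0.3203 and 0.4664 FPKM in SKNMC. ZNF121, given above, had 7.354 and 3.383 FPKM in DMSO.

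**Figure D3:**
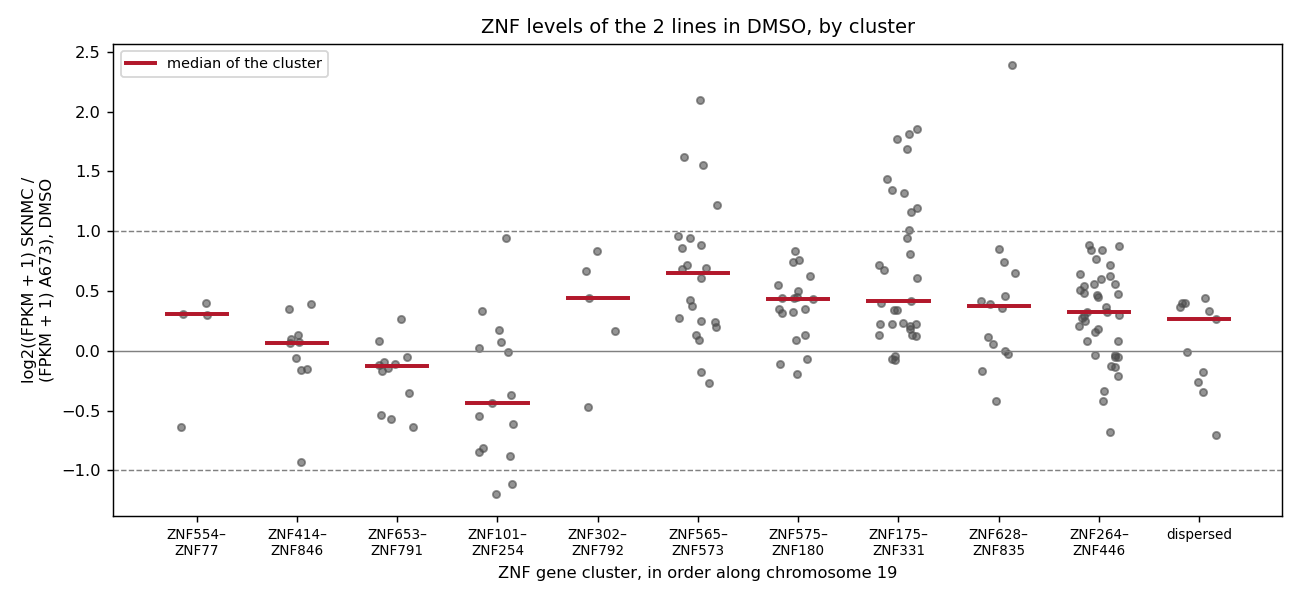
Log2 ratio of SKNMC to A673 in DMSO, with 1 added to each FPKM, for each ZNF gene active in either line (grey points), by cluster in order along the chromosome, with a red bar for the cluster median and dashed lines at 2-fold. The median was -0.43 in ZNF101 to ZNF254 and 0.65 in ZNF565 to ZNF573.

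Across the 143 members active in both lines, the log2 changes of A673 and SKNMC had a Spearman rho of 0.81 at 50 nM and 0.78 at 200 nM. Over all 10574 genes active in both lines rho was 0.84 and 0.82, so the order of the members was not more alike than that of genes in general. The points share the scaling of each library and its DMSO library, and genes are not independent replicates. At 50 nM 40 members were decreased in both lines, 65.6% of those decreased in A673 and 67.8% of those in SKNMC. At 200 nM there were 72, or 78.3% and 82.8%. The same overlap over all active genes was not counted, so these shares do not tell whether members were shared more than genes in general.

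**Figure D4:**
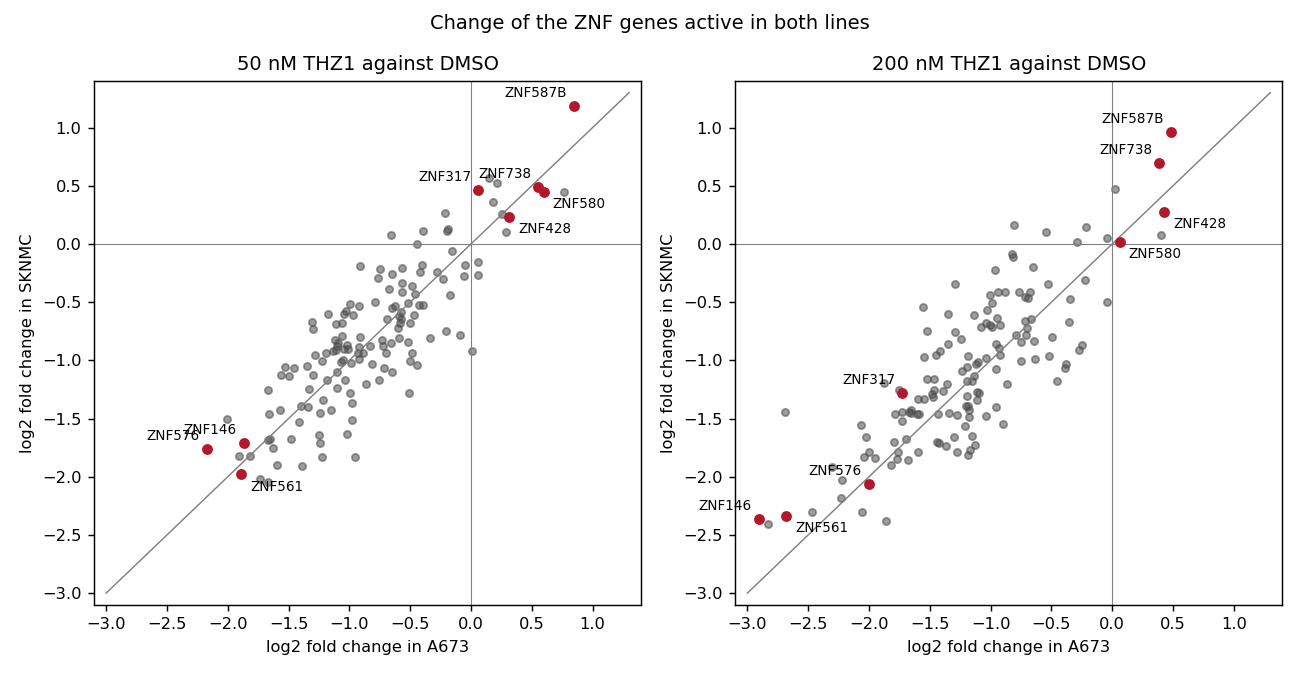
Log2 fold change in A673 (x axis) and SKNMC (y axis) of the 143 ZNF genes active in both lines at 50 nM (left) and 200 nM THZ1 (right), with 8 genes in red and a grey line of equal change. At 50 nM 123 genes lie below 0 in both lines and 11 lie above 0 in both, with no matching counts taken over all active genes.

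Properties of the genes were weakly related to their change. Over active members, Spearman's rho between the log2 change and transcript length, GC content, exon number, finger number or genomic span lay between -0.124 and 0.222 in the 4 comparisons, and such values are no finding. The median change at 50 nM in A673 was -0.77 in 108 members with the KRAB pattern and -0.92 in 40 without. The share decreased at 50 and 200 nM was 36.1% and 57.4% with the pattern and 45% and 65% without it in A673. In SKNMC it was 31% and 43.7% of 126 members with the pattern and 42.9% and 69% of 42 without. The members without it include most of the ZNF575 to ZNF180 cluster, where 2 of 22 matched, and of the ZNF628 to ZNF835 cluster, where 5 of 16 matched. In SKNMC at 200 nM, 13 of 19 active members (68.4%) of the former and 11 of 14 (78.6%) of the latter were decreased. Active members of these clusters had medians of 3.408 and 5.965 FPKM in SKNMC with DMSO. Pattern, cluster and level were not separated, and a missing match does not show that the domain is absent.

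The corepressors that KRAB proteins work through were taken as a list. Of its 23 genes (TRIM28, the histone methyltransferases, HP1, NuRD and HUSH components among them), 22 were found and all 22 were active in both lines. At 50 and 200 nM, 5 and 7 of them (22.7% and 31.8%) were decreased in A673, beside 15.9% and 25.3% of all active genes, and none was increased. In SKNMC 5 and 6 (22.7% and 27.3%) were decreased, beside 15.8% and 27.3%. TRIM28 was at 283.2, 344.4 and 315 FPKM in A673 and at 220.7, 278.8 and 262.9 FPKM in SKNMC, and so was above DMSO in each treated library. SETDB1 was at 13.14, 6.703 and 6.629 FPKM in A673 and at 20.88, 8.462 and 8.47 FPKM in SKNMC. CBX5, which encodes HP1 alpha, was at 59.89, 42.66 and 41.31 FPKM in A673 and at 58.22, 36.79 and 37.9 FPKM in SKNMC. FAM208A, the HUSH subunit TASOR, SMARCAD1 and the methyltransferase SUV39H1 were decreased in all 4 comparisons. The Ewing sarcoma markers FLI1, NR0B1, NKX2-2, STEAP1 and CD99 were all above 14 FPKM in DMSO in both lines. No other cell type was compared, so these levels alone do not identify the lines. At 50 and 200 nM, 2 and 3 of these 5 markers (40% and 60%) were decreased in A673 and 2 and 4 (40% and 80%) in SKNMC.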

How the data were processed

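RNA-seq of 6 libraries, 1 per condition, was analysed. Paired-end reads of 100 bp from TruSeq libraries were aligned by the authors to hg19 with STAR, with Ensembl 75 as annotation. Their methods name StringTie for quantification and the submitters' processing notes name Cufflinks. The authors deposited FPKM for 27420 protein-coding and lincRNA genes, in a table whose title refers to average expression, although the labels list 1 library for each condition. 4 deposited columns of log2 fold changes by the authors were not used. Depth is unknown from FPKM. The labels also spell SKNMC as SKMNC.

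Members, lists and alternatives were chosen with earlier results of these data known. Log2 fold changes used a pseudocount of 1, activity meant over 1 FPKM in DMSO, and no test was run. Named genes were, among members that exceeded 5 FPKM with DMSO in each line and had no 0, the 6 lowest and 6 highest by mean 50 nM change. From all members came the 6 highest in DMSO and the top of each cluster. From members active in either line came the 3 most different between lines in each direction. Clusters used gaps of up to 500 kb. Fingers, KRAB patterns and shared 100-base words came from GENCODE 44 transcripts on GRCh37, promoters from RefSeq (GRCh38.p14). Python 3.11.15 with pandas 2.3.3 and scipy 1.17.1 was used, and the steps were tested on simulated data. The alternatives were another pseudocount (0.1), activity (5 FPKM or none), fold threshold (1.5), cluster gap (250 or 1000 kb) scaling (common sum, 75th percentile of active genes, ribosomal protein genes), and leaving out members listed at 0, read-through loci or members sharing over 10% of their words.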

Additional observations from a re-analysis of the deposited data

How the results depend on the processing

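No median or count over the members or a cluster changed direction under the alternatives run, while single genes whose sign turned with scaling are named in the text. Counts below are of decreased members, and medians are log2 changes of members, each given for A673 at 50 and 200 nM and SKNMC at 50 and 200 nM where it moved. With a pseudocount of 0.1 the 50 nM counts were 99 in A673 and 101 in SKNMC, and the medians were -1.31, -2.09, -1.24 and -1.68. The lowest cluster medians were then -1.99, -3.46, -2.10 and -2.42, and the highest -1.11, -1.77, -0.70 and -1.002. With activity above 5 FPKM the counts were 18 of 37, 25 of 37, 25 of 53 and 37 of 53, from fewer genes, with medians of -0.99, -1.65, -0.99 and -1.44, and the highest cluster median was -0.49 in A673 at 200 nM and -0.75 in SKNMC at 50 nM. With no filter the medians were -0.51, -0.75, -0.56 and -0.74, and the highest cluster medians -0.25, -0.28, -0.18 and -0.093. Scaling by the 75th percentile gave SKNMC medians of -0.65 and -0.78. Scaling by the ribosomal protein genes gave medians of -1.21 in A673 at 200 nM and of -0.96 and -1.23 in SKNMC, with a highest cluster median of -0.63 in SKNMC at 50 nM. At 1.5-fold the counts were 102 in A673 at 50 nM and 113 and 134 in SKNMC. Beyond the effect of fewer or more genes and of the added constant, the cause was not tested. Of 380 medians of single clusters under the alternatives, 322 stayed within the 95% order-statistic interval of the reported median, which runs across genes and is wide for small clusters, and 58 moved. Leaving out members listed at 0 or read-through loci changed no count of decreased members, and leaving out members with shared words gave 53 of 129, 83 of 129, 53 of 145 and 79 of 145. Using only members active in both lines was chosen after seeing the data.

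No library was repeated, so the variation between cultures is unknown and no library was left out in turn. No paired analysis was possible because the conditions of a line share only the replicate number 1. A fit over all 6 libraries with line as a block, which would take the lines as replicates, was not run. Low FPKM values rest on an unknown number of reads. RNA per cell was not measured.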
